A study of Danio rerio with 18 samples.

Results

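The genes hgd, hsd17b8, f13a1b, fabp7a and calb2a were chosen by their lower array values after TCDD at 3 or 5 days post amputation (dpa) in regenerating caudal fins of zebrafish. They are 5 of the 8793 genes named on the array, and every probe set that carried 1 of these symbols was kept, which gave 8 of 15502 probe sets. hgd, fabp7a and calb2a have 1 probe set each, hsd17b8 has 2 and f13a1b has 3. Because the TCDD and vehicle values of 3 and 5 dpa chose the genes, those values are given as a description with no test, and the same holds for the steps between days. The comparison at 1 dpa did not enter the choice and was tested.

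All fish were adult males of the AB strain with the caudal fin amputated where the fin rays branch. The 3 exposed groups received TCDD (2,3,7,8-tetrachlorodibenzo-p-dioxin, an agonist of the aryl hydrocarbon receptor) in phosphatidylcholine liposomes at 50 ng/g, and their regenerating tissue was collected at 1, 3 or 5 dpa. The 3 control groups received the same liposomes without TCDD and were collected on the same days. Each of the 6 groups has 3 arrays, and the tissue of 10 fish was combined for each of them. The labels give replicates letters from A to E without explaining them. An error therefore describes the spread between pools and not between fish.

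A cut fin is closed by epidermis, then forms a mass of proliferating cells at the stump (the blastema), and then rebuilds rays, vessels, nerves and pigment. TCDD activates the aryl hydrocarbon receptor, a transcription factor that induces cyp1 enzymes, and blocks fin regrowth in zebrafish. The 5 genes do not form a pathway. hgd encodes homogentisate 1,2-dioxygenase, an enzyme of tyrosine breakdown. hsd17b8 encodes a 17-beta-hydroxysteroid dehydrogenase that in mammals also works with cbr4 as the ketoacyl reductase of mitochondrial fatty acid synthesis. f13a1b encodes a catalytic A subunit of clotting factor XIII, the transglutaminase that crosslinks fibrin, which mammalian macrophages also make. fabp7a encodes a brain-type fatty acid binding protein, known from radial glia, and calb2a encodes calretinin, an EF-hand calcium binder known from neurons.

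The arrays were alike in scale, with a median intensity of 75.1 to 84.1. cyp1a and cyp1c1, the induced targets of the receptor, were higher on every TCDD array than on any vehicle array of the same day. All levels below are on the log2(intensity + 1) scale unless stated otherwise. cyp1a ran from 12.07 to 14.00 on TCDD arrays. The vehicle arrays varied more, with cyp1a from 4.19 (1 dpa, letter E) to 10.13 (5 dpa, letter B). cyp1c1 ran from 11.38 to 12.17 on TCDD arrays and from 3.60 to 7.57 on vehicle arrays. Fin markers were present, with the epidermal keratins krt4 and krt5 at mean levels of 13.84 and 14.29, whereas the osteoblast factor sp7 was dim at 4.02. The log2 difference between the 3' and 5' GAPDH probe sets, a measure of RNA integrity, ran from 1.38 to 4.06, and both letter C arrays of 3 dpa had the highest values (4.06 with TCDD and 3.38 with vehicle). In whole fin tissue, fewer cells of a type and less RNA per cell cannot be told apart.

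Counts of genes in this paragraph read each gene from its brightest probe set. In vehicle fish, all 5 genes were higher at 5 dpa than at 1 dpa without overlap between the groups. That order held for 6 of the 8 probe sets of these genes and for 19.8% of all probe sets. In TCDD fish the same was true of 4 of the 5 genes and 4 of the 8 probe sets, against 14.0% of all probe sets. At 3 dpa TCDD arrays lay below all vehicle arrays for 4 of 5 genes and 4 of 8 sets (6.35% of all probe sets). At 5 dpa they did so for 4 of 5 genes and 5 of 8 sets (17.4%). These counts restate how the genes were picked. From 1 to 3 dpa the later arrays were all above the earlier ones for 5 of 5 genes and 6 of 8 sets in TCDD fish (11.8% of all probe sets). In vehicle fish they were so for 4 of 5 genes and 4 of 8 sets (8.7%). From 3 to 5 dpa they were so for 2 of 5 genes and 2 of 8 sets in TCDD fish (3.03%). In vehicle fish that held for 3 of 5 genes and 3 of 8 sets (12.1%). At these brightest probe sets, the group means of TCDD fish were thus not below their own 1 dpa means. For all 5 genes they were higher at 3 dpa than at 1 dpa, by 1.32-fold to 7.71-fold. At 5 dpa they were higher than at 1 dpa by 1.365-fold (f13a1b, where the groups overlapped) to 31.3-fold (hsd17b8). Against vehicle fish of 1 dpa, the TCDD arrays of f13a1b at 5 dpa were all lower at its brightest set and overlapped at its second set. In TCDD fish the third, dim f13a1b set (3 dpa) and the second hsd17b8 set (5 dpa) lay wholly below their 1 dpa arrays.

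**Figure D1:**
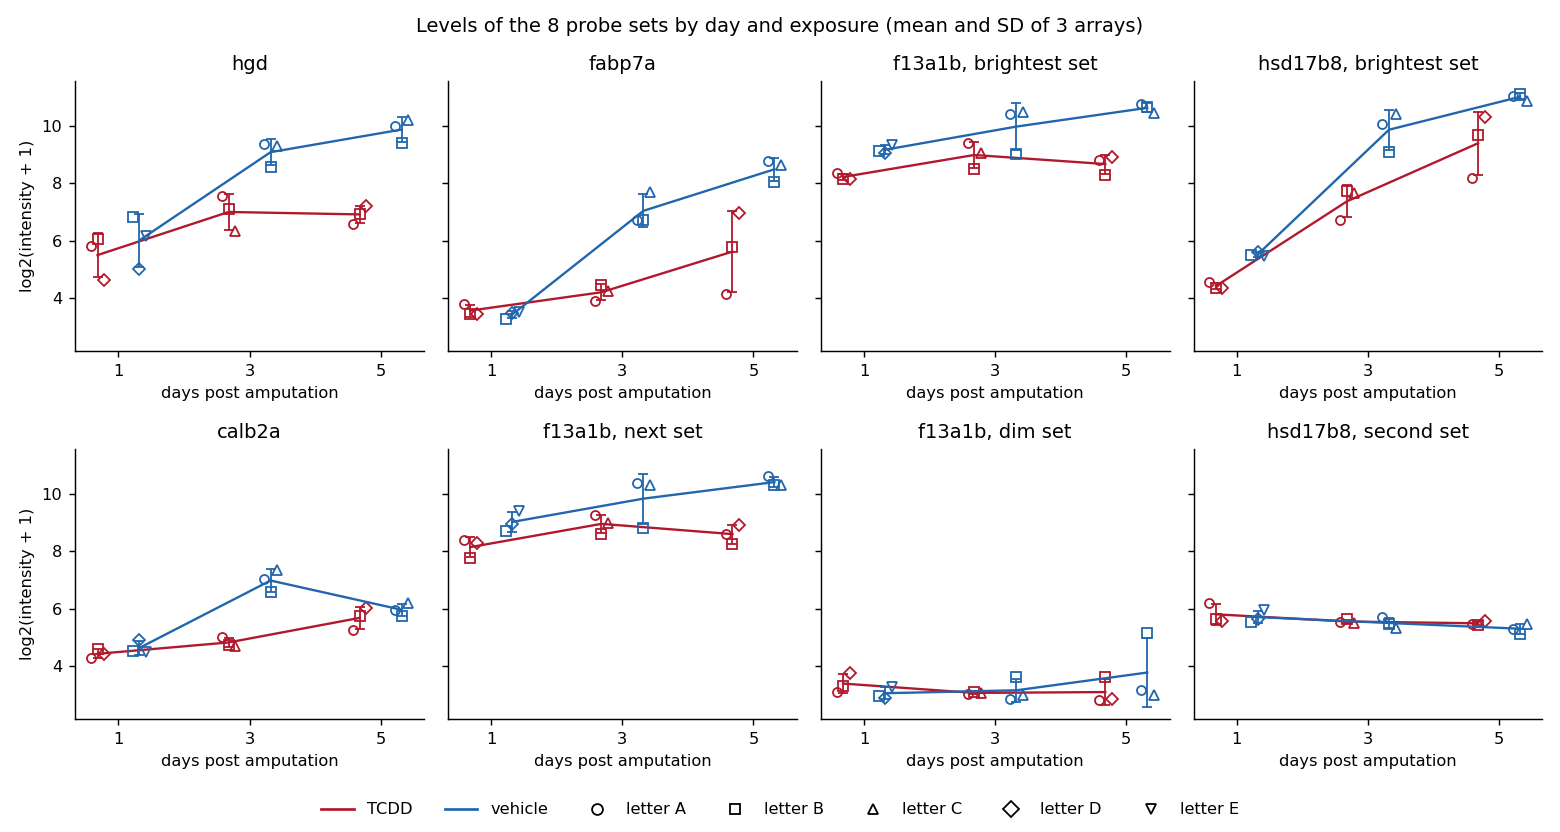
Level of each of the 8 probe sets, log2(intensity + 1) on the vertical axis, at 1, 3 and 5 dpa, with TCDD left of vehicle at each day. Each symbol is 1 array, shaped by its letter, and lines give the mean and SD of 3 arrays. The vehicle mean of hgd reached 9.87 at 5 dpa while its TCDD mean was 6.92, and the group means of the second hsd17b8 probe set were between 5.31 and 5.81.

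hgd was lower with TCDD at both 3 and 5 dpa, and further below at 5 dpa. At 1 dpa the TCDD arrays had levels of 5.83 (A), 6.07 (B) and 4.62 (D), and the vehicle arrays 6.85 (B), 5.04 (D) and 6.18 (E). At 3 dpa the levels were 7.55 (A), 7.13 (B) and 6.34 (C) with TCDD and 9.37 (A), 8.57 (B) and 9.32 (C) with vehicle. At 5 dpa they were 6.60 (A), 6.95 (B) and 7.22 (D) with TCDD and 10.01 (A), 9.40 (B) and 10.21 (C) with vehicle. The groups overlapped at 1 dpa and were apart at 3 and 5 dpa, and letter D was the lowest array of both exposures at 1 dpa. On the linear scale, hgd had an intensity of 122 ± 25.9 in TCDD fish and 962 ± 261 in vehicle fish at 5 dpa (SD, n = 3 each). The log2 difference of the means was -0.51 at 1 dpa, -2.08 at 3 dpa (4.23-fold lower) and -2.95 at 5 dpa (7.74-fold lower). From 1 to 3 dpa hgd was 2.83-fold higher in TCDD fish and 8.37-fold higher in vehicle fish. From 3 to 5 dpa the ratio was 0.943 in TCDD fish, where the groups overlapped, and 1.73 in vehicle fish, where they did not. The 5 dpa TCDD arrays lay below all vehicle arrays of 3 dpa and overlapped those of 1 dpa.

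hsd17b8 was higher on each later day in TCDD fish as well, but from a lower start. Its brighter probe set had 4.56 (A), 4.37 (B) and 4.36 (D) at 1 dpa with TCDD, against 5.52 (B), 5.62 (D) and 5.47 (E) with vehicle. At 3 dpa it had 6.73 (A), 7.74 (B) and 7.66 (C) with TCDD and 10.08 (A), 9.10 (B) and 10.42 (C) with vehicle. At 5 dpa it had 8.19 (A), 9.68 (B) and 10.31 (D) with TCDD and 11.05 (A), 11.11 (B) and 10.88 (C) with vehicle. The TCDD arrays were below the vehicle arrays on each of the 3 days, and the TCDD arrays of 5 dpa were spread over 2.12 log2 units. The log2 difference was -1.10 at 1 dpa, -2.49 at 3 dpa (5.61-fold lower) and -1.61 at 5 dpa (3.06-fold lower). Without letter A the 5 dpa difference was 2.02-fold. The step from 1 to 3 dpa was 7.71-fold in TCDD fish and 20.1-fold in vehicle fish, and the step from 3 to 5 dpa was 4.05-fold in TCDD fish (6.15-fold without letter A) and 2.21-fold in vehicle fish. From 1 to 5 dpa the transcript was 31.3-fold higher in TCDD fish and 44.5-fold higher in vehicle fish. The 5 dpa TCDD arrays overlapped the vehicle arrays of 3 dpa.

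The second hsd17b8 probe set did not follow the first. Its single arrays ran from 5.13 to 6.22 and its group means from 5.31 to 5.81. Its mean fell from 1 to 5 dpa without overlap, from 5.81 to 5.50 in TCDD fish and from 5.71 to 5.31 in vehicle fish. Its log2 differences with TCDD were 0.10, 0.05 and 0.19 at 1, 3 and 5 dpa, and the groups overlapped each day. Which of the 2 probe sets measures the hsd17b8 transcript was not tested, so the values of hsd17b8 rest on the brighter one.

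f13a1b was bright from the start, and its exposures were already apart at 1 dpa. Its brightest probe set had 8.35 (A), 8.17 (B) and 8.15 (D) at 1 dpa with TCDD and 9.13 (B), 9.05 (D) and 9.34 (E) with vehicle. At 3 dpa it had 9.40 (A), 8.50 (B) and 9.06 (C) with TCDD and 10.40 (A), 9.02 (B) and 10.50 (C) with vehicle. At 5 dpa it had 8.81 (A), 8.29 (B) and 8.91 (D) with TCDD and 10.77 (A), 10.65 (B) and 10.46 (C) with vehicle. The groups were apart at 1 and 5 dpa and overlapped at 3 dpa, where letter B was the lowest array of both exposures. The log2 difference was -0.95 at 1 dpa, -0.99 at 3 dpa (1.98-fold lower) and -1.96 at 5 dpa (3.88-fold lower). From 1 to 3 dpa the step was 1.70-fold in TCDD fish and 1.75-fold in vehicle fish. From 3 to 5 dpa the ratio was 0.804 in TCDD fish and 1.57 in vehicle fish, and the groups overlapped in both. The TCDD arrays of 5 dpa lay below the vehicle arrays of 3 dpa and also below those of 1 dpa.

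A second f13a1b probe set had log2 differences of -0.88, -0.88 and -1.81 at 1, 3 and 5 dpa. Its r with the brightest set was 0.98 over the 18 arrays. Unlike the brightest set, its TCDD arrays of 5 dpa (8.26 to 8.93) overlapped the vehicle arrays of earlier days. The lowest of those were at 8.83 (3 dpa) and 8.72 (1 dpa). Their probe set names share 1 cluster number, and both were read from the same RNA pools. The third set was dim, at a mean level of 3.27 near the bottom of the range of all probe sets. Its log2 differences were 0.34, -0.09 and -0.68, its groups overlapped each day, and its value at 5 dpa was 0.01 without the vehicle array of letter B.

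fabp7a was at a low level in both exposures at 1 dpa and separated by 3 dpa. At 1 dpa it had 3.82 (A), 3.45 (B) and 3.46 (D) with TCDD and 3.29 (B), 3.50 (D) and 3.54 (E) with vehicle. At 3 dpa it had 3.91 (A), 4.46 (B) and 4.27 (C) with TCDD and 6.72 (A), 6.71 (B) and 7.71 (C) with vehicle. At 5 dpa it had 4.14 (A), 5.78 (B) and 6.96 (D) with TCDD and 8.78 (A), 8.05 (B) and 8.65 (C) with vehicle. The groups overlapped at 1 dpa and were apart at 3 and 5 dpa, and the 5 dpa TCDD arrays ranged over 2.82 log2 units, from near the 1 dpa level up to that of vehicle fish at 3 dpa. The log2 difference was 0.14, -2.83 (7.11-fold lower) and -2.86 (7.27-fold lower) at 1, 3 and 5 dpa. At 5 dpa it was 4.35-fold without letter A of the TCDD group and 11.5-fold without letter D. The step from 1 to 3 dpa was 1.56-fold in TCDD fish and 12.2-fold in vehicle fish. From 3 to 5 dpa it was 2.66-fold in TCDD fish (4.46-fold without letter A, 1.68-fold without letter D) and 2.72-fold in vehicle fish. From 1 to 5 dpa fabp7a was 4.15-fold higher in TCDD fish and 33.1-fold higher in vehicle fish.

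calb2a alone had a peak in vehicle fish. At 1 dpa it had 4.28 (A), 4.60 (B) and 4.42 (D) with TCDD and 4.53 (B), 4.91 (D) and 4.48 (E) with vehicle. At 3 dpa it had 5.02 (A), 4.75 (B) and 4.72 (C) with TCDD and 7.04 (A), 6.57 (B) and 7.35 (C) with vehicle. At 5 dpa it had 5.28 (A), 5.73 (B) and 6.04 (D) with TCDD and 5.95 (A), 5.76 (B) and 6.18 (C) with vehicle. The groups were apart at 3 dpa and overlapped at 1 and 5 dpa. The log2 difference was -0.21, -2.15 (4.45-fold lower) and -0.28 at 1, 3 and 5 dpa. In vehicle fish calb2a was 5.07-fold higher at 3 dpa than at 1 dpa, and every 5 dpa array was then below every 3 dpa array (log2 difference -1.02). In TCDD fish each day lay above the one before without overlap, by 1.32-fold from 1 to 3 dpa and 1.81-fold from 3 to 5 dpa. At 5 dpa the TCDD arrays remained below the vehicle arrays of 3 dpa, with a difference of -1.30 between the means.

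Over the 5 genes, the rise of the log2 level from 1 to 3 dpa in TCDD fish was 48.9% of that in vehicle fish for hgd, 68.0% for hsd17b8, 95.0% for f13a1b, 17.7% for fabp7a and 16.9% for calb2a. From 1 to 5 dpa it was 36.7% for hgd, 90.7% for hsd17b8, 30.8% for f13a1b, 40.6% for fabp7a and 94.4% for calb2a. The f13a1b share at 3 dpa comes from rises of 0.76 in TCDD fish and 0.80 in vehicle fish, where the groups overlapped. Without its own letter B of 3 dpa, the vehicle rise of f13a1b was 1.28 and the TCDD rise was 1.01. The 5 dpa shares of hsd17b8 and fabp7a include TCDD letter A, the lowest array of that group for both genes. By group means, the genes differed in the day of the widest gap, which was not tested because these values chose them. hgd and f13a1b were furthest below vehicle at 5 dpa, and calb2a and hsd17b8 at 3 dpa. fabp7a was about as far below on both days. For hsd17b8 the difference was -2.49 ± 0.51 (SE from the 6 arrays of the day) at 3 dpa and -1.61 ± 0.63 at 5 dpa. For f13a1b it was -0.99 ± 0.55 at 3 dpa and -1.96 ± 0.21 at 5 dpa.

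At 1 dpa, the one comparison that did not choose the genes, 0 of the 8 probe sets passed an adjusted p of 0.05 (limma, Benjamini-Hochberg over 15502 probe sets), against 0.245% of all probe sets (0.0839% lower and 0.161% higher with TCDD). 3 of the 8 had an unadjusted p under 0.05, against 8.01% of all probe sets: the 2 bright f13a1b sets and the brighter hsd17b8 set. On these 3 sets the TCDD arrays also lay below all vehicle arrays, an order found in 3.01% of all probe sets. They stand for only 2 of the 5 genes, as the 2 f13a1b sets share 1 cluster number and the same pools. For f13a1b the log2 difference was -0.95 ± 0.32 (SE) with an adjusted p of 0.392 in limma, and for hsd17b8 it was -1.10 ± 0.43 with an adjusted p of 0.528 in limma. An exact permutation test (two-sided) gave 0.1 for each, the smallest p that 3 against 3 arrays allow. hgd had a difference of -0.51 ± 0.46 (adjusted p = 0.858 in limma, exact p = 0.5), fabp7a of 0.14 ± 0.49 (0.968 in limma, exact p = 0.6) and calb2a of -0.21 ± 0.22 (0.886 in limma, exact p = 0.4). The spread in limma was pooled over all 18 arrays, those of 3 and 5 dpa included. In a limma fit of the arrays of 1 dpa alone, the adjusted p was 0.303 for f13a1b and 0.236 for hsd17b8. For hgd, fabp7a and calb2a that fit gave 0.905, 0.891 and 0.884. At 1 dpa fabp7a had levels of 3.29 to 3.82. The third f13a1b set averaged 3.40 with TCDD and 3.06 with vehicle. A fall with TCDD could hardly show from such low levels, so the test says little about a fall there. The macrophage marker list differed the same way at 1 dpa: its summed intensity over 12 measured genes was 13910 to 17175 in TCDD fish and 17580 to 22712 in vehicle fish, and 1 of the 12, the complement gene c1qc, was lower (log2 difference -1.30, adjusted p = 0.0412 in limma). The median difference of the 12 was -0.64, and 6 had an unadjusted p under 0.05 in limma. The brightest of them, cd74a at a mean level of 13.64, had -0.25 (adjusted p = 0.741 in limma). The part of macrophages in the f13a1b value was not tested.

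**Figure D2:**
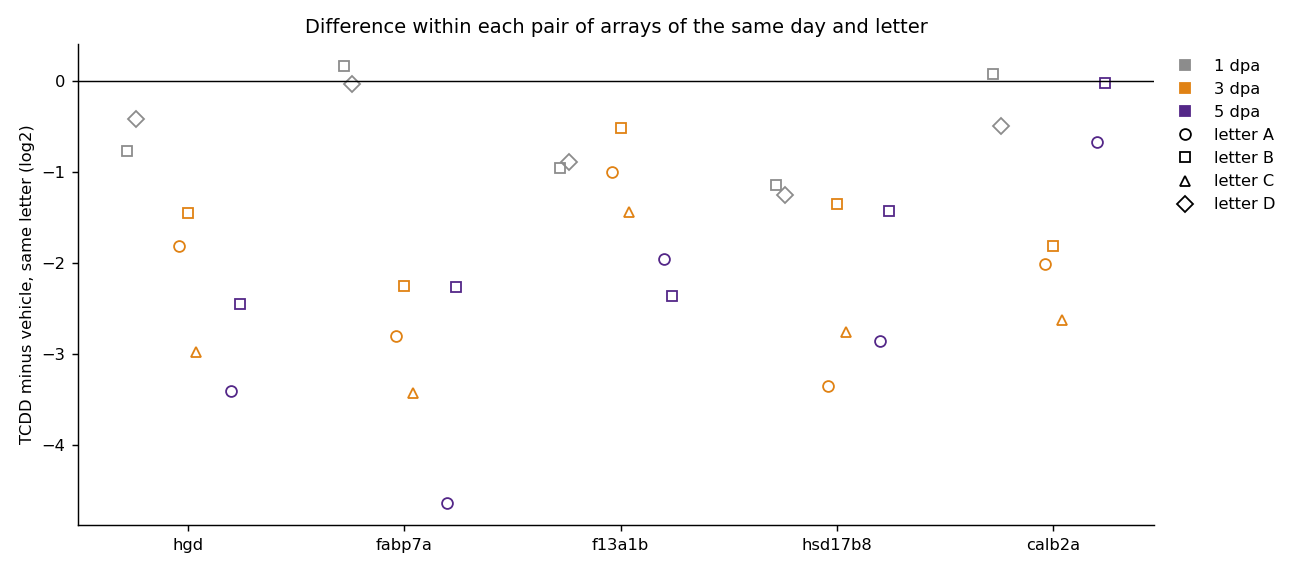
TCDD minus vehicle (log2, vertical axis) within each of 7 pairs of arrays that share a day and a letter, for the 5 genes, with colour for the day and shape for the letter. Every pair of hgd, f13a1b and hsd17b8 lies below 0, as do 6 of 7 pairs of fabp7a and calb2a.

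Arrays of the same day and letter deviated together over the probe sets above the median level, so the difference was also taken within the 7 such pairs. TCDD was lower in 7 of 7 pairs for hgd (median -1.81), for hsd17b8 (median -1.43) and for f13a1b (median -0.999). It was lower in 6 of 7 pairs for fabp7a (median -2.26) and for calb2a (median -0.68). The dim f13a1b set was lower in 3 of 7 pairs and the second hsd17b8 set in 2 of 7. 5 of the 7 pairs are of 3 or 5 dpa, which chose the genes. The letters recur across days, and arrays of 1 letter deviated together there as well, so the 7 pairs may not be independent.

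In 2 of the 6 groups the genes shared an order of the pools. In the TCDD group of 5 dpa, letter D had the highest level for 5 of 5 genes (34.4% of all probe sets) and letter A the lowest for 4 of 5 (28.4%). In the vehicle group of 3 dpa letter B had the lowest for 5 of 5 (46.1% of all probe sets). In the other 4 groups no letter was the lowest or the highest for more than 3 of the 5 genes. Summed intensity of the 16 measured fin markers in the TCDD group of 5 dpa was 89476 for letter A, 103679 for letter B and 114612 for letter D, against 117269 to 128610 in vehicle fish. On these 3 TCDD arrays cyp1a had levels of 13.65 (A), 13.73 (B) and 13.73 (D), and cyp1c1 had 11.79 (A), 11.52 (B) and 11.38 (D). On the vehicle arrays of 3 dpa cyp1a had 7.78 (A), 8.03 (B) and 4.39 (C), and cyp1c1 had 6.70 (A), 6.72 (B) and 3.60 (C). The part of these values in the spread of the 5 genes was not tested.

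**Figure D3:**
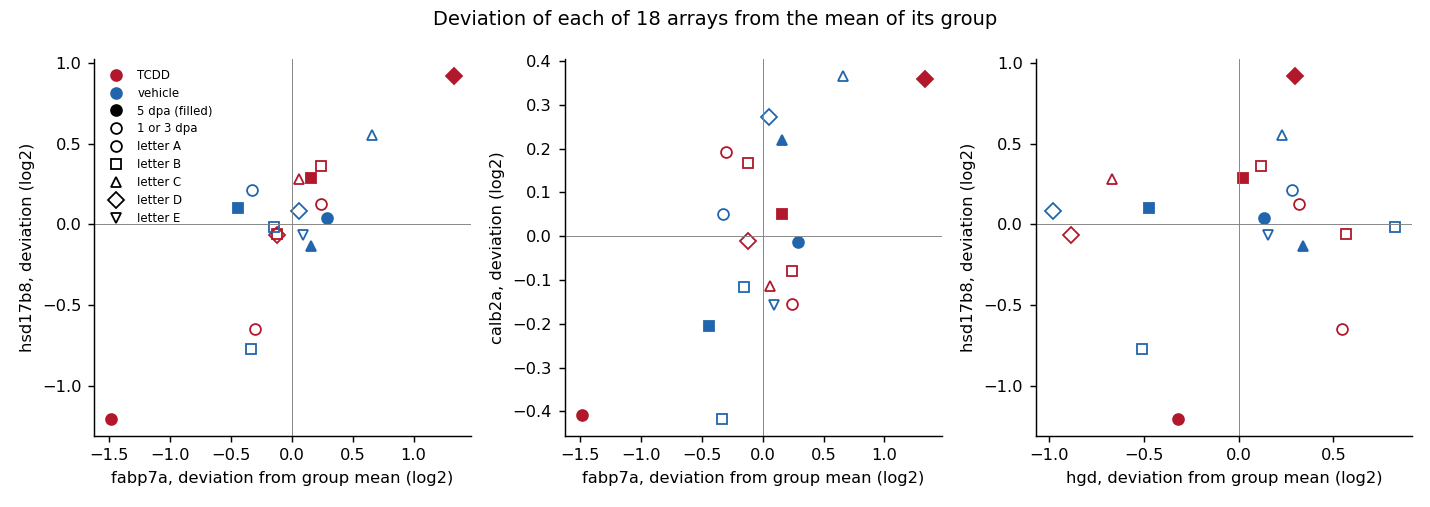
Deviation of each of the 18 arrays from the mean of its group (log2) for pairs of the genes, TCDD and vehicle in separate colours and 5 dpa filled. fabp7a and hsd17b8 deviate together (r = 0.85), and the TCDD arrays of letters A and D at 5 dpa lie at the ends of that cloud.

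Across the 18 arrays, Pearson's r between the levels of the genes ran from 0.66 (f13a1b and calb2a) to 0.93 (fabp7a and hsd17b8). These arrays share the 6 groups, and the genes were picked for the differences between them, so the values only describe. With each group's mean removed, r ran from 0.12 (fabp7a and f13a1b) to 0.85 (fabp7a and hsd17b8). It was 0.66 for fabp7a and calb2a, 0.59 for hsd17b8 and calb2a and 0.43 for f13a1b and calb2a. Without the TCDD arrays of letters A and D at 5 dpa, the array deviations of fabp7a and hsd17b8 had r = 0.60, those of fabp7a and calb2a 0.42 and those of hsd17b8 and calb2a 0.31 (n = 16). For f13a1b and calb2a it was 0.16 without both letter B arrays of 3 dpa (n = 16) and 0.55 without the TCDD group of 5 dpa (n = 15). hgd had r = 0.14 with hsd17b8, although their levels had r = 0.86, and 0.27 with calb2a. Without both letter D arrays of 1 dpa, hgd and calb2a had r = 0.57 (n = 16), and without the TCDD group of 5 dpa 0.19 (n = 15).

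Among 7039 other probe sets with a single gene name and a mean level of 5 or more, the genes with the most similar levels over the 18 arrays differed between the 5 genes. For hgd they were bhmt, a betaine-homocysteine methyltransferase (r = 0.97), cpn1, a carboxypeptidase N subunit (0.96), and vim, the intermediate filament vimentin (0.95). With group means removed, bhmt kept r = 0.89 with hgd, cpn1 0.83 and vim 0.59. For hsd17b8 they were runx2a, an osteoblast transcription factor (r = 0.98), ecrg4a (0.98) and col11a1a, a fibrillar collagen chain (0.98), which kept 0.67, 0.70 and 0.80 within groups. For fabp7a they were ncana, the proteoglycan neurocan (r = 0.96), crip2, a LIM protein (0.96), and plod1a, a lysyl hydroxylase of collagen (0.95), which kept 0.70, 0.75 and 0.73. For f13a1b they were fam13b (r = 0.91), sv2bb, a synaptic vesicle protein (0.91), and marcksl1b, an actin-binding substrate of protein kinase C (0.91), which kept 0.76, 0.67 and 0.64. For calb2a they were txndc5, a disulfide isomerase of the endoplasmic reticulum (r = 0.91), snai2, the transcription factor Slug (0.90), and slc2a10, a sugar transporter (0.89), which kept 0.39, 0.27 and 0.46.

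Other genes of each pathway or family were then examined, 47 measured genes in 5 lists. At 1 dpa 0 of the 47 passed an adjusted p of 0.05 in limma, against 0.245% of all probe sets, and 5 had an unadjusted p under 0.05, against 8.01%. At 3 dpa 0 passed, against 1.11% (0.729% lower and 0.381% higher with TCDD), and 4 had an unadjusted p under 0.05, against 10.8%. At 5 dpa 3 passed, against 1.64% (0.877% lower and 0.768% higher), and 16 had an unadjusted p under 0.05, against 17.6%. The unadjusted counts of single lists below stand beside these same shares. The 3 were pcbd1, lower, and f5 and pvalb7, higher with TCDD.

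The tyrosine list, 6 measured of 10 listed, had a median log2 difference of 0.12, -0.42 and -0.57 at 1, 3 and 5 dpa, beside 0.05, 0.04 and -0.04 over all probe sets. 0 of the 6 passed at 1 and 3 dpa and 1 at 5 dpa. pcbd1, a pterin dehydratase that recycles the cofactor of phenylalanine hydroxylase, was lower with TCDD at 5 dpa, at 9.26 ± 0.22 in TCDD fish and 10.33 ± 0.30 in vehicle fish (SD, n = 3 each). Its means at 1 and 3 dpa were 8.30 and 9.39 in TCDD fish and 8.63 and 10.26 in vehicle fish. Its log2 difference was -1.07 ± 0.22 (SE, adjusted p = 0.0283 in limma), and the call was lost without TCDD letter A or B or vehicle letter A or C (adjusted p from 0.0804 to 0.108). At 3 dpa the difference was -0.87 (adjusted p = 0.0896 in limma, 0.0146 with the letter as a block). qdpra, a dihydropteridine reductase of the same cofactor cycle, had -0.60 at 5 dpa (adjusted p = 0.0521 in limma, 0.0170 with the letter as a block), at a low level. tat, the aminotransferase that starts tyrosine breakdown, was singled out after its values were seen: it had 5.62 ± 1.38 in TCDD fish and 8.38 ± 0.31 in vehicle fish at 5 dpa, a difference of -2.76 with an adjusted p of 0.159 in limma. Over the 18 arrays, the deviations of hgd from its group means were set beside those of the 6 genes. Their r was 0.76 for tat, 0.57 for fah, 0.42 for pcbd1, 0.26 for qdprb.1, -0.45 for qdpra and -0.56 for hpda. At 1 dpa letter D was the lowest array of both exposures for tat (4.23 with TCDD, 3.43 with vehicle), as for hgd. In the TCDD group of 5 dpa letter D was the lowest for tat (4.15) and the highest for hgd (7.22). fah, the last enzyme of the pathway, averaged 9.11 ± 0.17 in TCDD fish and 9.65 ± 0.36 in vehicle fish at 5 dpa (adjusted p = 0.284 in limma).

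**Figure D4:**
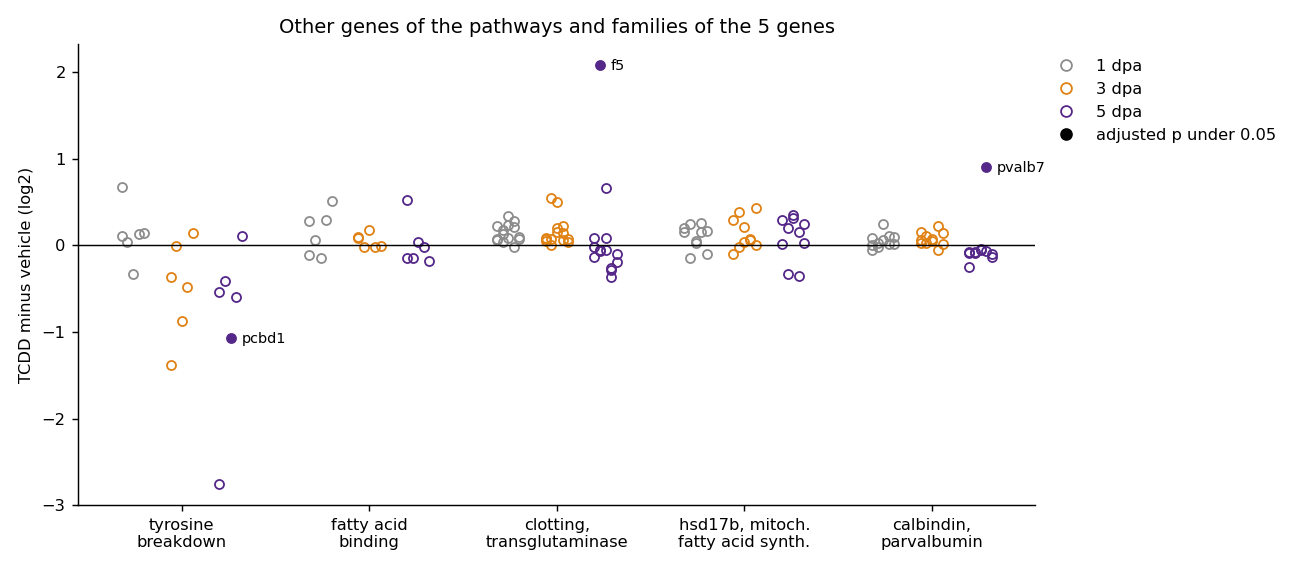
TCDD minus vehicle (log2, vertical axis) for the measured genes of the 5 lists at 1, 3 and 5 dpa. Filled points passed an adjusted p of 0.05 in limma: pcbd1 below 0, and f5 and pvalb7 above 0, all at 5 dpa.

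The clotting and transglutaminase list, 14 measured of 30 listed, had median differences of 0.11, 0.08 and -0.06 at 1, 3 and 5 dpa, and 1 of the 14 passed, at 5 dpa. f5, clotting factor V, had 8.93 (A), 9.05 (B) and 8.88 (D) in TCDD fish at 5 dpa and 6.34 (A), 7.40 (B) and 6.88 (C) in vehicle fish. The groups were more than 1 log2 unit apart, and the difference was 2.08 ± 0.28 (SE, adjusted p = 0.00174 in limma). f5 thus had the opposite sign to f13a1b at 5 dpa. In vehicle fish its group means were 9.51, 8.55 and 6.87 at 1, 3 and 5 dpa, and in TCDD fish they were 9.69, 9.09 and 8.95. The fibrinogen chains fga, fgb and fgg were dim, with mean levels of 3.19, 3.73 and 3.91.

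The calcium binder list, 11 measured of 13 listed, had median differences of 0.03, 0.06 and -0.08, and 1 of the 11 passed, at 5 dpa. pvalb7, a parvalbumin, was higher with TCDD at 5 dpa at a very low level, 3.99 ± 0.45 in TCDD fish and 3.09 ± 0.07 in vehicle fish (difference 0.90, adjusted p = 0.0100 in limma, 0.132 in a fit of the 6 arrays of that day). calb2b, the other calretinin gene of zebrafish, was dim, with a mean level of 3.40 and differences of -0.02, 0.11 and -0.08.

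0 genes passed on any day among the 6 measured fatty acid binding proteins of 14 listed and the 10 measured hydroxysteroid dehydrogenases and mitochondrial fatty acid synthesis genes of 17 listed. At an unadjusted p under 0.05 limma gave 2, 0 and 1 genes of the first list and 1, 2 and 4 of the second at 1, 3 and 5 dpa. The median differences of the first list were 0.18, 0.04 and -0.08, and those of the second 0.15, 0.07 and 0.17. fabp3, the brightest fatty acid binding protein, averaged 12.30 ± 0.44 in TCDD fish and 12.47 ± 0.07 in vehicle fish at 5 dpa (SD, n = 3 each). The brightest of the second list, hsd17b12a of very long chain fatty acid elongation, averaged 10.90 ± 0.42 in TCDD fish and 11.23 ± 0.23 in vehicle fish. ndufab1a, the acyl carrier protein of mitochondria, averaged 10.50 ± 0.09 in TCDD fish and 10.35 ± 0.17 in vehicle fish.

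Markers of cells known to express these genes elsewhere were read beside them. Of 17 measured nerve and glia genes, 0 passed in limma on any day (2, 4 and 3 at an unadjusted p under 0.05 at 1, 3 and 5 dpa). At 3 dpa their summed intensity was 1392 to 1761 in TCDD fish and 1235 to 1307 in vehicle fish, with 10 genes above and 7 below vehicle and a median difference of 0.05. mbpb, a myelin gene at a mean level of 10.02, carried most of the sum, and without it the sums overlapped (370 to 424 in TCDD fish and 351 to 437 in vehicle fish). The part of nerve and glia in the values of fabp7a and calb2a was not tested. The glial markers gfap and s100b were dim, at mean levels of 4.52 and 2.83, and sox10 was at 6.72. Of 6 lateral line and other mechanosensory markers 0 passed (unadjusted 0, 1 and 1), and their summed intensity overlapped on each day. Of 10 liver and plasma genes, a tissue where hgd is known to be active, 0 passed on any day (unadjusted 1, 0 and 1). All 10 were dim, with mean levels from 2.59 to 4.77. Their summed intensity at 3 dpa was 128 to 149 in TCDD fish and 118 to 126 in vehicle fish, and it overlapped at 1 and 5 dpa. Macrophage sums overlapped at 3 and 5 dpa, with median differences of -0.25 and -0.26. Of the 12 macrophage genes 3 and 4 had an unadjusted p under 0.05 in limma on these days, and c1qc was lower at 3 dpa (-1.14, adjusted p = 0.0373 in limma).

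The summed intensities of 2 further lists did not overlap between the exposures at 3 and 5 dpa. Pigment cell markers, 7 measured, had sums of 221 to 357 in TCDD fish and 464 to 626 in vehicle fish at 3 dpa, and of 246 to 291 in TCDD fish and 581 to 804 in vehicle fish at 5 dpa. The gap rested on gch2 and slc2a15b: without them the sums were 111 to 135 in TCDD fish and 97.3 to 135 in vehicle fish at 3 dpa, and 116 to 165 in TCDD fish and 144 to 161 in vehicle fish at 5 dpa. Of the 7 genes 3 were above vehicle at 3 dpa and 2 at 5 dpa, among them dct, a melanin enzyme (0.62 and 0.47), and the list's median difference was -0.01 at 3 dpa and -0.30 at 5 dpa. gch2, the first enzyme of pteridine synthesis, had -1.55 at 3 dpa (adjusted p = 0.0240 in limma) and -2.40 at 5 dpa (0.00133 in limma), and slc2a15b, a transporter of yellow pigment cells, had -1.90 at 5 dpa (adjusted p = 0.0136 in limma). Fin markers had sums of 81918 to 87585 in TCDD fish and 97839 to 106922 in vehicle fish at 3 dpa, and median differences of -0.12 at 3 dpa and -0.35 at 5 dpa. Of them the actinodin gene and2 (-2.83 at 3 dpa, -2.04 at 5 dpa) and runx2a (-1.07 and -1.31) passed as lower on both days, and mmp13a, a collagenase, passed as higher on all 3 days. Of 6 muscle and 5 erythrocyte markers 0 passed in limma (unadjusted 0, 1 and 3 for muscle and 1, 0 and 0 for erythrocytes), and erythrocyte sums were higher with TCDD without overlap at 3 dpa. The part of these lists in the values of the 5 genes was not tested.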

How the data were processed

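The deposited intensity values, 1 per probe set on a linear scale, come from GCRMA as run by the authors (submitters' processing notes). The GCRMA version is not given in the sources used here. Groups and letters came from the labels. 115 Affymetrix controls were left out of 15617 probe sets. Of the 15502 others 10795 had 1 symbol (10711 updated by Entrez ID), 135 several and 4572 none. A gene was read from its brightest probe set. Levels are log2(intensity + 1), which understates differences of dim transcripts. limma 3.58.1 in R 4.3.3 fitted 6 group means (eBayes with a trend). p-values were two-sided and adjusted by Benjamini-Hochberg over all 15502. The exact permutation test used scipy 1.17.1. The fit was tested at 1 dpa on simulated data with independent arrays. Those data held no deviation shared by a letter, so they cannot show how the fit behaves with it. Precision is limited by how few arrays there are.

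The 5 genes and all lists were chosen with earlier results of these data known. Named were all their probe sets, list genes called on any day (at most 4 per list, otherwise the 2 brightest), up to 3 called markers per list, and the 3 genes most like each. Others were named after their values were seen.

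Same-day arrays of 1 letter deviated from their group means together (r from 0.204 to 0.700 in 7 of 7 pairs). Of 20 same-day pairs of different letters 2 were above 0.1, so letters pair the arrays. Across days, r was above 0.1 in 23 of 24 pairs of 1 letter and in 16 of 84 pairs of different letters. The steps between days were read from group means, without the letter. The fit reported holds no letter term. Alternatives were another pseudocount, quantile or median scaling, a filter on dim probe sets, each array left out, the letter as a block, only the arrays of the day, and a constant variance prior.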

Additional observations from a re-analysis of the deposited data

How the results depend on the processing

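Of 740 alternative values computed, 723 kept their direction and call or moved by less than the spread between arrays, 6 calls were lost, 11 values moved and 0 reversed a call. Part of the 723 could not move. A 1 dpa difference stays the same without an array of 3 or 5 dpa, and only its adjusted p can change. The 3 dpa differences stay the same with the letter as a block, as both exposures hold the same letters. With a pseudocount of 16 the log2 difference at 3 dpa was -2.13 for fabp7a and -1.71 for calb2a, and the step from 1 to 3 dpa was 0.32 in TCDD fish and 2.51 in vehicle fish for fabp7a, 2.31 in TCDD fish for hsd17b8 and 1.82 in vehicle fish for calb2a. A larger pseudocount shrinks differences of dim genes by construction. The number of the 8 probe sets called at 1 dpa stayed 0 in all 25 alternatives. Genes of the 5 lists called at 3 dpa were 0, but 1 (pcbd1) with the replicate block, and 0 to 1 with 1 array left out. The 1 was pcbd1 without vehicle letter B (adjusted p = 0.0335 in limma). At 5 dpa 3 were called, 5 with a constant variance prior (hpda and qdpra added), 4 with the replicate block (qdpra added), 1 (f5) in a fit of the arrays of that day alone, and 2 to 4 with 1 array left out. The cause was not tested. f5 passed in all 25 alternatives.

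Without both letter C arrays of 3 dpa, an alternative chosen after seeing the data, the differences at 3 dpa were -1.63 for hgd, -2.35 for hsd17b8, -0.76 for f13a1b, -2.53 for fabp7a and -1.91 for calb2a. The replicate block changed no call of the 8 probe sets. fabp7a, calb2a and the third f13a1b set lie below the 40th percentile of level, where signal over background limits what can be told.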
